A study of Mus musculus with 6 samples.

Results

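Messenger RNA of 8 genes that carry out or license programmed cell death was followed in CT26.WT, an established mouse colon carcinoma line. The genes were taken by symbol from the deposited table: the caspases Casp2, Casp6, Casp8 and Casp9, the gasdermins Gsdmd and Gsdme, the kinase gene Ripk1 and the pseudokinase gene Mlkl. All 8 were found, each on 1 of the 25407 gene rows, and all 8 passed the filter on low counts. There were 3 libraries of treated cells and 3 of control cells. The treated cells had been given Cu2O@AuMn@HA, a nanoplatform whose name gives copper oxide, gold, manganese and HA as its parts, together with NaHS, a hydrogen sulfide donor, and NIR (near-infrared light). The series title names photothermal and nanocatalytic therapy, ferroptosis and immunotherapy as its subjects. The sources used here give neither a mock treatment of the control cells nor doses or exposure times, and the parts of the combined treatment cannot be told apart. All libraries come from 1 cell line, and the labels do not state that they are separate cultures, so the p-values rest on a spread between samples that may be technical.

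Caspases are proteases that wait in the cell as inactive precursors. Initiators are switched on by assembly on a platform: caspase 8 at death receptors, caspase 9 on the apoptosome after cytochrome c leaves mitochondria, and caspase 2 on the PIDDosome. Executioners, among them caspase 6, are then cleaved and cut structural proteins. Gasdermins are pore proteins freed by protease cleavage, gasdermin D mainly by inflammatory caspases, and their pores give the lytic death called pyroptosis. RIPK1 is a scaffold and kinase of the tumour necrosis factor receptor that can pass a death signal to RIPK3, which phosphorylates MLKL, the protein that breaks the plasma membrane in necroptosis. All of these steps act on proteins, whereas the values here are messenger RNA levels.

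Totals were 62328377 to 70323604 estimated counts in treated libraries and 71409968 to 81821380 in control libraries. Rows with a count above 0 numbered 20621 to 21059 in treated libraries and 18681 to 18970 in control libraries. Ribosomal RNA made up 0.251% to 0.260% of estimated counts in treated libraries and 3.62% to 3.94% in control libraries. Mitochondrial transcripts made up 1.96%, 3.45% and 2.22% in treated libraries, with treated 2 highest, and 1.86%, 1.25% and 1.41% in control libraries. Of 8 colon epithelium markers, only the keratin genes Krt8, Krt18 and Krt20 were well above 0. Epcam and Cdh1 stayed at or under 0.1 FPKM (a fragment count divided by transcript length and by library size) in every library. Krt19 averaged 0.694 FPKM in treated and 0.135 FPKM in control cells. Cdx2 averaged 0.396 and 0.255 FPKM, and Vil1 0.0971 and 0.0203 FPKM, in the same order. The summed level of this list was 224 to 238 FPKM in treated and 153 to 169 FPKM in control libraries, but its 2 most abundant genes differed in opposite directions. Krt18 averaged 163 ± 9.97 FPKM in treated and 65.4 ± 5.94 FPKM in control cells, and Krt20 57.5 ± 4.22 FPKM in treated and 90.3 ± 3.00 FPKM in control cells. The 4 endothelial markers summed to 0.0325 to 0.0555 FPKM in treated and 0.0285 to 0.0680 FPKM in control libraries. The 3 leucocyte markers in the table summed to 2.25 to 3.59 FPKM in treated and 2.56 to 3.05 FPKM in control libraries. Ptprc and Itgam stayed at or under 0.1 FPKM. The sum was carried by Lyz2, at 2.70 ± 0.751 FPKM in treated and 2.74 ± 0.272 FPKM in control cells. The 6 fibroblast markers summed to 66.0 to 74.7 FPKM in treated and 99.4 to 109 FPKM in control libraries, a sum carried by Col1a1 and Col1a2, while Dcn averaged 0.925 ± 0.106 FPKM in treated and 0.191 ± 0.0260 FPKM in control cells. The part of these differences in the results was not tested. In bulk RNA, fewer cells of a kind and less RNA per cell cannot be told apart.

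Casp6 and Gsdmd rose in treated cells, Gsdme fell, and the other 5 genes did not pass the test. The test was edgeR's quasi-likelihood test with Benjamini-Hochberg adjustment over all 16212 rows tested and a threshold of 0.05. Of all rows tested, 46.6% were called, 23.0% higher and 23.5% lower, so 3 called genes of 8 is not more than this background. The median absolute log2 fold change was 0.18 over the 8 genes and 0.49 over all rows tested, and the signed medians were −0.09 and 0.06. FPKM values of treated and control libraries did not overlap for the same 3 genes, while 57.5% of all tested rows showed no overlap, 30.4% with treated higher and 27.1% with treated lower.

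**Figure D1:**
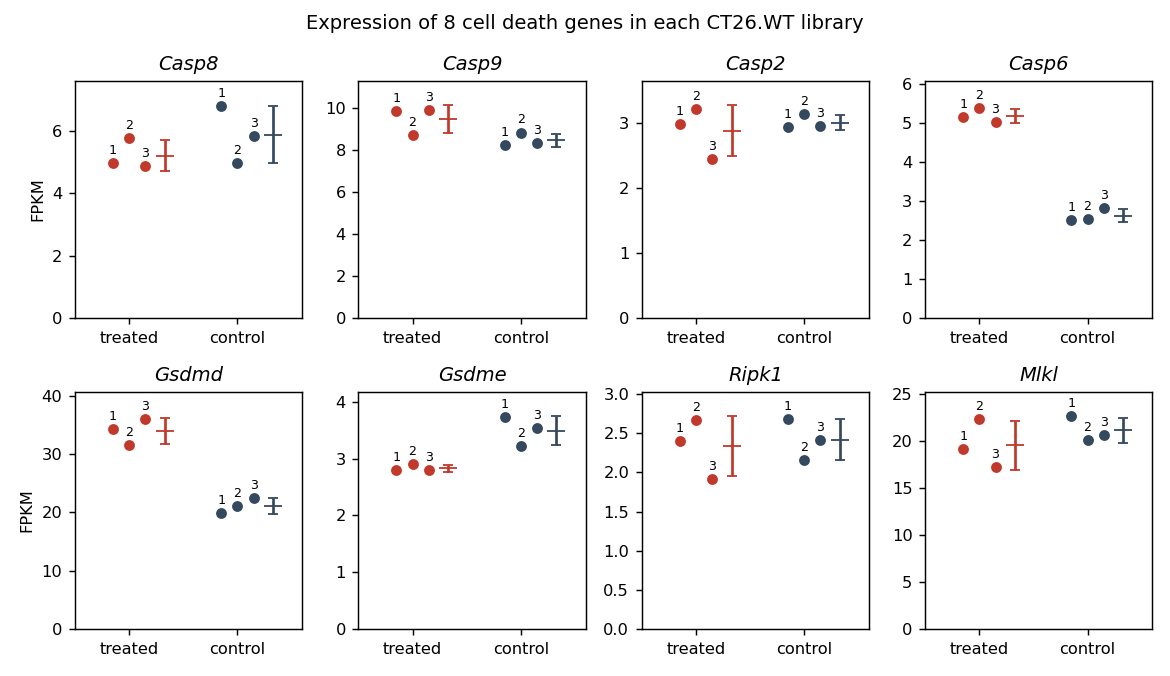
FPKM of the 8 genes in each library (points, numbered by replicate), with the mean and SD of each group to the right of its points, treated cells left of control cells. The groups are apart for Casp6, Gsdmd and Gsdme and overlap for the other 5 genes, with Casp6 at 5.01 to 5.37 FPKM in treated and 2.51 to 2.82 FPKM in control libraries.

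The levels span about an order of magnitude, and they are ranked here by FPKM, which is scaled to transcript length. FPKM is not corrected for GC content, which differs between these genes, and the part of this in the ranking was not tested. In treated cells Gsdmd was highest, at 33.9 ± 2.25 FPKM (mean ± SD, n = 3), followed by Mlkl at 19.5 ± 2.59 and Casp9 at 9.50 ± 0.663 FPKM. Casp8 at 5.19 ± 0.502 and Casp6 at 5.18 ± 0.180 FPKM overlapped in treated libraries, as did Casp2 at 2.88 ± 0.391 and Gsdme at 2.83 ± 0.0597 FPKM. Ripk1 had the lowest mean, at 2.33 ± 0.383 FPKM, and overlapped Casp2. In control cells Mlkl at 21.1 ± 1.34 and Gsdmd at 21.1 ± 1.30 FPKM could not be ranked, and Casp9 followed at 8.48 ± 0.317 and Casp8 at 5.86 ± 0.913 FPKM. Gsdme at 3.50 ± 0.255 and Casp2 at 3.01 ± 0.115 FPKM came next without overlapping, and the ranges of Casp6 at 2.63 ± 0.170 and Ripk1 at 2.42 ± 0.263 FPKM overlapped. The order of the control cells thus had Casp6 below Casp2 and Gsdme, whereas in treated cells every Casp6 value was above every value of those 2 genes.

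Among the initiators, Casp8, the caspase of death receptors, had 4.95, 5.77 and 4.86 FPKM in treated libraries and 6.79, 4.96 and 5.83 FPKM in control libraries. The groups overlap, with control 1 highest and control 2 near the low treated values. The log2 fold change, treated over control, was −0.21 ± 0.13 (SE; adjusted p = 0.235 by edgeR), with a 95% interval of −0.50 to 0.09. Casp9, the caspase of the apoptosome, had 9.86, 8.74 and 9.91 FPKM in treated libraries and 8.26, 8.84 and 8.33 FPKM in control libraries. Treated 2 lies below control 2, and the other treated libraries lie above all controls. Its log2 fold change was 0.13 ± 0.09 (edgeR adjusted p = 0.282, 95% interval −0.08 to 0.33). Casp2, the caspase of the PIDDosome, had 2.98, 3.21 and 2.45 FPKM in treated libraries and 2.93, 3.14 and 2.95 FPKM in control libraries. Treated 3 is the lowest of the 6 and treated 2 the highest, and the log2 fold change was −0.10 ± 0.12 (edgeR adjusted p = 0.512, 95% interval −0.36 to 0.16). None of these intervals reaches a 2-fold change in either direction.

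Casp6 (ENSMUSG00000027997, chromosome 3, 129695074 to 129707752, plus strand, genome build not given), the executioner that cleaves lamin A, had 5.16, 5.37 and 5.01 FPKM in treated libraries and 2.51, 2.55 and 2.82 FPKM in control libraries. Every treated value is above every control value, and neither group has a value far from its mean. The estimated counts behind these values were 1945, 2285 and 2098 in treated libraries and 1124, 1228 and 1186 in control libraries. The log2 fold change was 0.94 ± 0.10, a 1.92-fold increase (95% interval 0.72 to 1.16; edgeR adjusted p = 4.9e-05), the largest change among the 8 genes. It stayed between 0.88 and 0.97 with any 1 library left out.

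Of the gasdermins, Gsdmd (ENSMUSG00000022575, chromosome 15, 75734176 to 75739257, plus strand), the pore gene of inflammatory caspases, had 34.2, 31.5 and 36.0 FPKM in treated libraries and 19.8, 21.0 and 22.4 FPKM in control libraries. The groups are well apart, with treated 2 the lowest of the treated and control 3 the highest of the controls. The log2 fold change was 0.65 ± 0.09, a 1.57-fold increase (95% interval 0.45 to 0.85; edgeR adjusted p = 0.000288). Gsdme (ENSMUSG00000029821, chromosome 6, 50165868 to 50240842, minus strand), another pore gene of the family, had 2.80, 2.90 and 2.80 FPKM in treated libraries and 3.73, 3.22 and 3.54 FPKM in control libraries. The treated values are close together and all lie below the controls. The log2 fold change was −0.34 ± 0.08, or 0.791 of the control level (95% interval −0.52 to −0.16; edgeR adjusted p = 0.00593). The ratio of Gsdmd to Gsdme FPKM within a library was 12.2, 10.9 and 12.9 in treated libraries and 5.31, 6.52 and 6.33 in control libraries, a ratio chosen after the values were seen.

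The genes of the necroptosis arm differed in level more than between groups. Ripk1 had 2.40, 2.68 and 1.92 FPKM in treated libraries and 2.68, 2.16 and 2.41 FPKM in control libraries. The groups overlap throughout, and treated 3 is the lowest library. The log2 fold change was −0.09 ± 0.13 (edgeR adjusted p = 0.616, 95% interval −0.38 to 0.20), and without treated 3 its sign turned, to 0.02 (adjusted p = 0.938). Mlkl had 19.1, 22.3 and 17.2 FPKM in treated libraries and 22.6, 20.1 and 20.6 FPKM in control libraries. Treated 2 stands among the controls, and the other treated libraries lie below them. The log2 fold change was −0.15 ± 0.10 (edgeR adjusted p = 0.232, 95% interval −0.37 to 0.07), and without treated 2 Mlkl was called lower, at −0.27 (adjusted p = 0.0332). Mlkl exceeded Ripk1 in FPKM by 7.94, 8.32 and 8.94 times in treated libraries and by 8.43, 9.31 and 8.57 times in control libraries.

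Ripk3, the kinase that joins RIPK1 to MLKL, is named with its value known and was close to the limit of detection. Its estimated counts were 0, 14 and 0 in treated libraries and 4, 14 and 0 in control libraries. The inferred weight of 1 fragment is about 4 estimated counts, and Ripk3 was not tested. Its highest FPKM was 0.0660 in treated 2. Ripk3 expression above a few fragments was therefore not detectable in these libraries, while Mlkl had 2960 to 3909 estimated counts in treated libraries and 3576 to 4172 in control libraries.

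**Figure D2:**
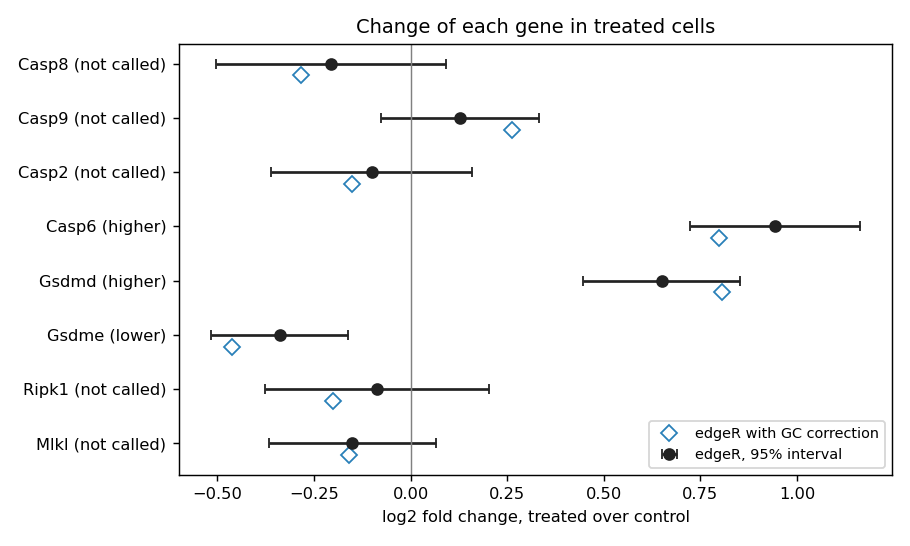
Log2 fold change, treated over control, of each gene from edgeR (filled circles, bars are 95% intervals) and from the same test after a correction for transcript GC content (open diamonds, no interval drawn). The intervals of Casp6, Gsdmd and Gsdme exclude 0, and the GC correction keeps the sign of all 8 genes.

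Within the treated group the 8 genes varied in 2 patterns, which divided them as the GC content of their transcripts does. Casp9 and Gsdmd have protein-coding transcripts with 56.5% and 54.7% GC, and the other 6 genes have 46.2% to 48.5%. In treated cells those 6 genes were all highest in treated 2 and lowest in treated 3, whereas Casp9 and Gsdmd were lowest in treated 2 and highest in treated 3. Treated 2 is also the library with the highest mitochondrial share, and the part of this in the pattern was not tested. In control cells Casp8, Gsdme, Ripk1 and Mlkl were highest in control 1 and lowest in control 2, and Casp2, Casp6, Casp9 and Gsdmd were all lowest in control 1. The within-library Spearman correlation between a row's deviation from its mean over all libraries and transcript GC content was −0.22, −0.45 and 0.01 in treated 1, 2 and 3 and 0.08, 0.37 and 0.16 in control 1, 2 and 3, over 15760 rows that share a library. A GC correction fitted to these deviations also removes any group difference that follows GC content, and the 2 cannot be told apart. With a GC correction Casp8 was called lower, at −0.28 (edgeR adjusted p = 0.0328), and Casp9 higher, at 0.26 (adjusted p = 0.00405). Casp6 then stood at 0.80, Gsdmd at 0.80 and Gsdme at −0.46, all still called, as were 49.9% of rows.

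**Figure D3:**
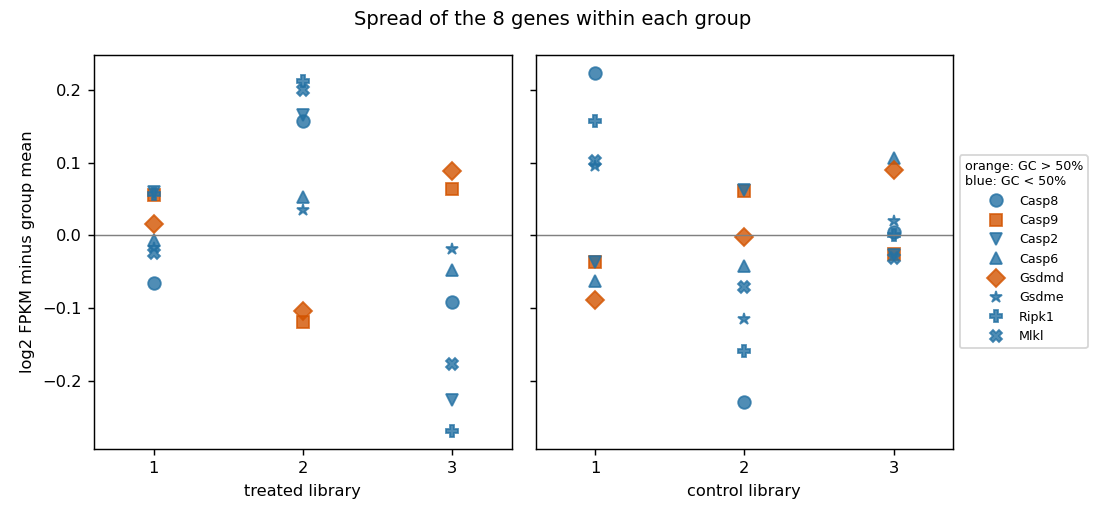
Log2 FPKM of each gene minus its group mean, by library, for treated cells (left) and control cells (right). Orange marks the 2 genes with transcripts above 50% GC and blue the 6 genes below. In treated 2 the blue genes lie above 0 and the orange genes below, and in treated 3 the reverse is seen.

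Promoters are shown for the called genes that have an entry in the RefSeq table (Casp6 and Gsdme) and, for contrast, for Casp8. Each window covers 250 bases before to 50 bases after the most upstream annotated start, from RefSeq on build GRCm38.p6, and 7 of the 8 genes had an entry. Capitals mark the letters GGGCGG on either strand (CCGCCC on the strand shown), known as the GC box. The windows are chr3:129901165-129901464 (plus strand) for Casp6, chr6:50261720-50262019 (minus strand) for Gsdme and chr1:58802252-58802551 (plus strand) for Casp8.
Casp6: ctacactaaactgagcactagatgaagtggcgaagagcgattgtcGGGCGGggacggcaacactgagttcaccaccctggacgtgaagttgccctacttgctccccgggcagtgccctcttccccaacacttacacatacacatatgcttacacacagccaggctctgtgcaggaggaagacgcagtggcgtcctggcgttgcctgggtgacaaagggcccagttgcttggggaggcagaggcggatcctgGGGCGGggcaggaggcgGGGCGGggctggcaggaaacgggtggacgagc
Gsdme: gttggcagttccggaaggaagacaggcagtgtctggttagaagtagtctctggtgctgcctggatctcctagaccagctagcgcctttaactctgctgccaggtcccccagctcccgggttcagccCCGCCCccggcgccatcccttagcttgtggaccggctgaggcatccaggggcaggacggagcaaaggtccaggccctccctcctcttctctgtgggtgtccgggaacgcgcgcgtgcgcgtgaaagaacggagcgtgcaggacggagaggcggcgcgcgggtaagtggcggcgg
Casp8: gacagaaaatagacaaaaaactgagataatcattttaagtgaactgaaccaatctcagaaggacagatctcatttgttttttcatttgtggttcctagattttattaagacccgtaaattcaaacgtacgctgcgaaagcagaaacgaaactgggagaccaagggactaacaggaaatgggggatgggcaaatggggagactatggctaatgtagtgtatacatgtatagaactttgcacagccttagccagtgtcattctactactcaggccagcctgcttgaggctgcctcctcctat
The Casp6 window holds 3 such matches and the Gsdme window 1, although one gene rose and the other fell. The Casp8 window holds 0 and has 42.0% GC, against 62.0% for Casp6 and 65.7% for Gsdme. Casp2 holds 2 matches, Casp9 4, Ripk1 3 and Mlkl 0. Of all 27025 promoter windows 35.9% hold a match, and the median GC content is 52.7%. These matches describe letters only.

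For each gene the row with the most similar profile over the 6 libraries was taken from 8924 rows with gene symbols, by Pearson correlation of log2 scaled counts. The 6 values include both groups, and no p is given. The highest of 8924 correlations over 6 values is high by selection alone, so these pairs do not show shared regulation. Casp6 was most like Ndufa1, a respiratory complex I subunit (r = 0.999), and Gsdmd most like Acyp1, an acylphosphatase (r = 0.999). Gsdme was most like Vdac3, a channel of the outer mitochondrial membrane (r = 0.996), Casp9 most like Septin5 (r = 0.998) and Ripk1 most like Stard7 (r = 0.998). Casp2 paired with Mccc2 (r = 0.991), Mlkl with Slbp, the histone stem-loop binding protein (r = 0.986), and Casp8 with Taf2, a TFIID subunit (r = 0.978).

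In the deposited annotation all 8 genes carried the term cytoplasm, shared with 6123 rows of the table. The term pyroptosis was given to Casp6, Casp8, Gsdmd and Gsdme, on 29 rows in all, and necroptotic process to Casp8, Ripk1 and Mlkl, on 17 rows. Casp8, Gsdmd, Gsdme, Ripk1 and Mlkl shared the KEGG pathway of cytosolic DNA sensing, which has 65 rows.

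Genes that act with the 8 were read from lists of general knowledge. Of 75 genes, 57 were tested, 19 rose and 17 fell, with a median log2 fold change of −0.03, close to the 0.06 of all rows. Of all rows tested 23.0% were called higher and 23.5% lower, and these are the shares beside which the counts of each list stand. After GC correction 17 list genes rose and 15 fell, where 23.2% of all rows were called higher and 26.8% lower. Of the other caspases, 3 are reported here. Casp4, the mouse caspase 11 that senses lipopolysaccharide and cleaves gasdermin D, averaged 0.692 ± 0.144 FPKM in treated and 0.149 ± 0.0369 FPKM in control cells (log2 fold change 2.16 ± 0.28, edgeR adjusted p = 0.000200). Casp12 rose by 1.80 ± 0.27 and Casp1, the inflammasome caspase that also cleaves gasdermin D, by 1.34 ± 0.24. Casp12 averaged 1.20 ± 0.255 FPKM in treated and 0.334 ± 0.102 FPKM in control cells. Control libraries had only 38 to 59 estimated counts for Casp4 and 69 to 136 for Casp12. Casp1 averaged 1.99 ± 0.631 FPKM in treated and 0.765 ± 0.0923 FPKM in control cells, so these 3 genes stayed far below Gsdmd in level. After GC correction the 3 values were 1.61, 0.86 and 0.62, all still called.

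Of the other gasdermins, Gsdmc2, named with its value known, and Gsdmc4 were tested and neither passed, with Gsdmc4 at 0.234 ± 0.0645 FPKM in treated and 0.0951 ± 0.0119 FPKM in control cells (edgeR adjusted p = 0.0694).

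Around caspase 9, 3 of 9 genes of the apoptosome, the caspase inhibitors and their antagonists rose and 5 fell. Birc5 (survivin), a mitotic member of the inhibitor family, averaged 16.6 ± 0.302 FPKM in treated and 40.4 ± 0.840 FPKM in control cells (log2 fold change −1.32 ± 0.07). The giant inhibitor gene Birc6 fell by 1.12 ± 0.14, and Diablo, whose protein frees caspases from their inhibitors, fell by 0.77 ± 0.10. Apaf1, the apoptosome scaffold, averaged 1.74 ± 0.346 FPKM in treated and 1.79 ± 0.0231 FPKM in control cells (edgeR adjusted p = 0.700). The 3 that rose were Birc2, Birc3 and Xiap, named after their values were seen, at 1.97 ± 0.31, 0.89 ± 0.32 and 0.78 ± 0.23. The Birc3 and Xiap calls were both lost without treated 1, treated 2, control 1 or control 2, at adjusted p values of 0.0828 to 0.164 for Birc3 and 0.0587 to 0.0903 for Xiap. After GC correction Xiap stood at −0.18 (edgeR adjusted p = 0.410).

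Around caspase 8, 3 of 7 tested genes of death receptors, ligands and adaptors rose and 1 fell. The adaptor gene Fadd, which brings caspase 8 to death receptors, had 1.97, 2.47 and 2.26 FPKM in treated and 6.08, 5.80 and 6.12 FPKM in control libraries (log2 fold change −1.46 ± 0.12). The death receptor gene Fas rose by 1.48 ± 0.31, to 1.29 ± 0.340 FPKM in treated cells, against 0.452 ± 0.161 FPKM in control cells. Cflar, which encodes the caspase 8 inhibitor c-FLIP, averaged 4.17 ± 0.643 FPKM in treated and 2.59 ± 0.353 FPKM in control cells (0.65 ± 0.12). The ratio of Cflar to Casp8 FPKM was 0.864, 0.824 and 0.716 in treated libraries and 0.426, 0.444 and 0.461 in control libraries, again chosen after the values were seen. The third gene that rose was Tradd, chosen with its value known, at 0.29 ± 0.09, and it was no longer called without treated 1, treated 3, control 1 or control 3 (edgeR adjusted p = 0.0806 to 0.132). The tumour necrosis factor receptor gene Tnfrsf1a averaged 60.3 ± 5.10 FPKM in treated and 60.2 ± 2.45 FPKM in control cells (edgeR adjusted p = 0.800). The ligand genes Fasl and Tnfsf10, named with their values known, had at most 10 estimated counts in any library and were not tested. Both genes of the caspase 2 platform fell, Pidd1 by 0.85 ± 0.13 and Cradd by 0.74 ± 0.17.

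Around RIPK1 and MLKL, 2 of 16 tested necroptosis partners and ubiquitin regulators rose and 6 fell. After GC correction 1 of the 16 rose and 4 fell, so the count of genes that fell depends on the setting. Tnfaip3 (A20), which edits ubiquitin chains on RIPK1, averaged 6.73 ± 0.640 FPKM in treated and 3.90 ± 0.378 FPKM in control cells (log2 fold change 0.75 ± 0.10). Rbck1 (HOIL-1), a subunit of the linear ubiquitin ligase, averaged 51.3 ± 3.35 FPKM in treated and 69.2 ± 1.27 FPKM in control cells (−0.47 ± 0.08). Ikbkb, a kinase that restrains RIPK1, fell by 0.69 ± 0.08. Mapkapk2, another kinase that phosphorylates RIPK1, stood at 60.2 ± 4.39 FPKM in treated and 67.9 ± 1.58 FPKM in control cells and was not called (edgeR adjusted p = 0.0655). It was called lower without treated 3, at −0.28 (adjusted p = 0.0175), and in both limma fits (adjusted p = 0.0451 and 0.0462). The other gene that rose was the deubiquitinase gene Cyld, chosen with its value known, at 0.77 ± 0.17, and it was not called after GC correction, at 0.25 (adjusted p = 0.0695).

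Around gasdermin D, 2 of 5 tested inflammasome genes rose and 0 fell. The DNA sensor gene Aim2 averaged 3.18 ± 0.801 FPKM in treated and 1.05 ± 0.349 FPKM in control cells (log2 fold change 1.56 ± 0.25). Nek7, which licenses the NLRP3 inflammasome, rose by 1.16 ± 0.29, a call lost after GC correction at 0.33 (edgeR adjusted p = 0.148). Nlrp3 itself averaged 1.78 ± 0.233 FPKM in treated and 1.83 ± 0.231 FPKM in control cells (edgeR adjusted p = 0.711). The cytokine genes Il1b and Il18 are named with their values known. Il1b had 4 estimated counts in treated 1 and 0 in every other library. Il18 averaged 0.620 ± 0.118 FPKM in treated and 0.159 ± 0.151 FPKM in control cells, with 0, 16 and 24 estimated counts in control libraries. It was not called (log2 fold change 1.91 ± 0.91, edgeR adjusted p = 0.112), but was called higher with counts divided by 4 (adjusted p = 0.021). Of 6 genes of membrane rupture and repair, 4 rose and 0 fell, or 2 without control 3. Ninj1, whose protein ruptures the plasma membrane after gasdermin pores form, averaged 99.2 ± 6.92 FPKM in treated and 76.4 ± 0.602 FPKM in control cells (0.34 ± 0.08). The ESCRT gene Chmp3 rose by 0.45 ± 0.09. Pdcd6, from the same list, rose by 0.32 ± 0.08, a call that did not hold without control 3 (edgeR adjusted p = 0.0564). Chmp2a, chosen with its value known, rose by 0.25 ± 0.08, a call also lost without control 3 (adjusted p = 0.153), without treated 1 or 3 and without control 2. Chmp4b, another ESCRT gene, averaged 130 ± 1.25 FPKM in treated and 113 ± 3.01 FPKM in control cells and was not called (log2 fold change 0.16 ± 0.07, edgeR adjusted p = 0.108). It was called higher in 5 of 16 alternatives, among them the GC correction (0.31, adjusted p = 0.00062), library totals only (0.24, adjusted p = 0.00667) and both limma fits.

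Of 7 tested caspase substrates, 2 rose and 3 fell. The chromatin condensation gene Acin1 averaged 3.16 ± 0.273 FPKM in treated and 10.7 ± 0.379 FPKM in control cells (log2 fold change −1.79 ± 0.08). Parp1, the DNA repair enzyme cut in apoptosis, averaged 19.1 ± 0.511 FPKM in treated and 34.7 ± 1.25 FPKM in control cells (−0.90 ± 0.08). Vim, vimentin, averaged 1295 ± 38.6 FPKM in treated and 925 ± 37.2 FPKM in control cells (0.45 ± 0.07). Lmna, lamin A and the substrate most tied to caspase 6, averaged 220 ± 16.6 FPKM in treated and 228 ± 5.59 FPKM in control cells (edgeR adjusted p = 0.418). The other genes called were Dffa, which fell by 0.64 ± 0.12, and Rock1, at 0.61 ± 0.21, both named after their values were seen. The Rock1 call was lost with any library but treated 3 left out (edgeR adjusted p = 0.0561 to 0.152), and after GC correction it stood at −0.04.

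**Figure D4:**
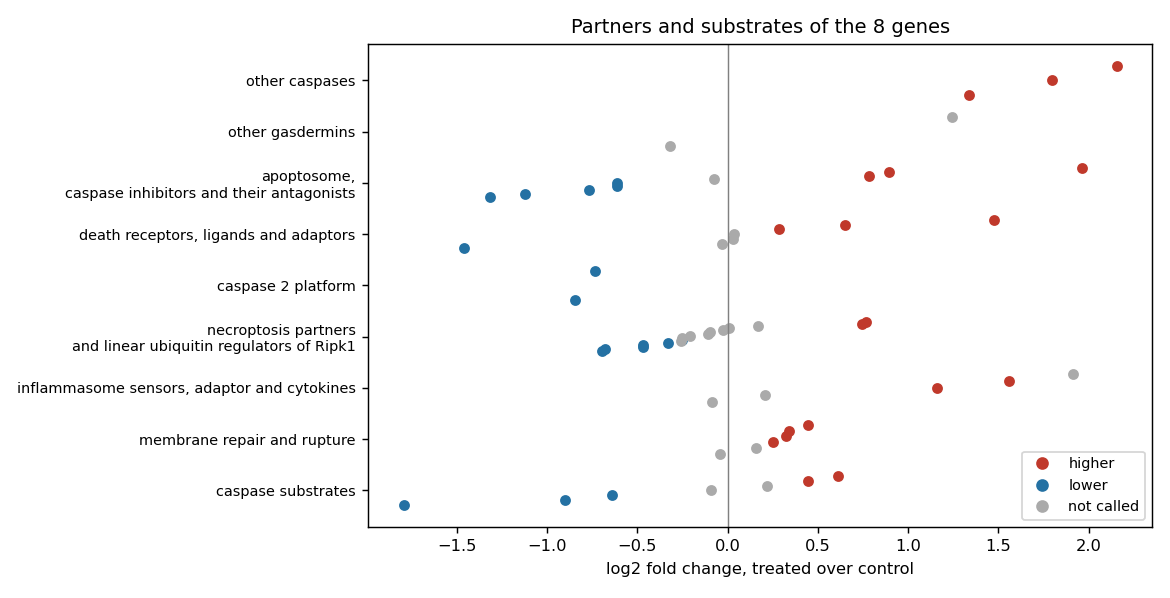
Log2 fold change, treated over control, of the 57 tested list genes (1 point each), with red for called higher, blue for called lower and grey for not called by edgeR at an adjusted p of 0.05. Both genes of the caspase 2 platform lie to the left of 0.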

How the data were processed

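Per the file headers, the authors deposited 1 table with an FPKM value and an estimated count per gene and library, and annotation terms. The authors deposited the estimated counts as whole numbers. The value 4 was seen 4054 times and its neighbours 2539.5 times on average. The value 8 was seen 1989 times and its neighbours 1420 times on average. A weight of about 4 per fragment is inferred from this excess only, and other small values were also common. StringTie 2.1.6, HISAT2 2.2.1, cutadapt 1.9, edgeR and DESeq2 are named, with no roles, in the submitters' processing notes. The sources used here give no build, annotation release or strand setting of the counting, and antisense or overlapping genes and near-identical copies are uncertain. Gene coordinates are those of the table, and 0 of 8 equal those of GENCODE M21 (GRCm38). Groups and library numbers come from the sample titles.

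The main test was edgeR 4.0.16 (R 4.3.3) on the estimated counts, with its default low count filter and TMM scaling, 2-sided. SE is the absolute log2 fold change divided by the root of F, and intervals are 95%. Alternatives were RLE factors, library totals only, no filter, a mean FPKM of at least 5 and DESeq2 1.42.0. Others were counts divided by 4 and limma 3.58.1 on log2(FPKM + 1) or log2(FPKM + 0.1) at a mean FPKM of at least 1. The rest were a GC correction by loess (span 0.4), a replicate block and each library left out. GC came from GENCODE M21 for 97.2% of tested rows. It was that of protein-coding transcripts, or of all transcripts where a gene has no protein-coding one. On simulated data of treated against control (15720 genes) edgeR recovered 81.0% of 100 genes changed 2-fold and 93.0% of 100 changed 4-fold, and called 14 unchanged genes. No other genes were changed and no GC trend was simulated, whereas 46.6% of the real rows were called. These rates therefore do not describe the test on the real data or on changes smaller than 2-fold. The genes and lists were chosen with earlier results of these data known. All 8 genes are named. From each list, the 3 called genes with the smallest p and the most abundant uncalled gene are named, and other list genes are marked as named with their values known. Of the list genes, 10 with no row in the table were not analysed here. Some genes first placed on the lists are not reported here, and the counts leave them out. Columns of per-sample values left unused number 0.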

Additional observations from a re-analysis of the deposited data

How the results depend on the processing

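Over 16 alternatives Casp6, Gsdmd and Gsdme kept their call and direction wherever they had a value (15, 16 and 15 alternatives), with adjusted p values up to 0.000757, 0.00267 and 0.0381. Casp2 was called in 0. Casp8 became called with the GC correction (−0.28, adjusted p from 0.0328 to 0.620 over all alternatives), and Casp9 with that correction (0.26) and with the filter on a mean FPKM of 5 (0.25; 0.00405 to 0.592). With 1 library left out, log2 fold changes ran from −0.31 to −0.12 for Casp8, from 0.07 to 0.18 for Casp9, from −0.2656 to −0.0879 for Mlkl and from −0.2072 to 0.0151 for Ripk1, whose sign turned without treated 3. Of the 8 genes, those called lower numbered 2 with the GC correction and 0 with that filter, where only 4 of the 8 genes were tested, and 1 to 2 with 1 library left out. With that filter fewer rows entered the test: 4410 were called (2217 higher, 2193 lower) against 7548, and of list genes 18 against 36. With 1 library left out, 6073 to 7264 rows and 29 to 37 list genes were called.

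The shared library numbers gave no sign of pairing: deviations of libraries with the same number correlated at 0.04, −0.10 and 0.01. These values do not establish that there is none, since trends across a whole library also enter them. With the replicate block 6275 rows and 29 list genes were called, and Casp6, Gsdmd and Gsdme remained called (Gsdme adjusted p = 0.0376).

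For the 29 list genes named by the rule, 415 of 438 values kept direction and call, 8 became called, 2 lost the call and 13 turned sign, with 0 of these 13 called. For the 9 tested list genes other than Il18 named with their values known, 97 of 129 values kept direction and call. Of the rest, 30 lost the call and 2 turned sign, both with the GC correction (Xiap at −0.1776 and Rock1 at −0.0382). The 30 were 7 each for Birc3 and Rock1, 5 each for Xiap, Tradd and Chmp2a, and 1 for Cyld. Il18 kept direction and call in 12 of 13 values and became called with counts divided by 4. With library totals only, Apaf1 stood at 0.0064 and Tnfrsf1a at 0.0435. With the filter on a mean FPKM of 5, Tnfrsf1a stood at 0.0924 and Lmna at 0.0328. In limma Tnfrsf1a stood at 0.0004 and 0.0003, and with GC correction it stood at 0.10 and Nlrp3 at 0.0116. With 1 library left out, values ran from −0.1890 to 0.0607 for Apaf1, from −0.1072 to 0.0265 for Tnfrsf1a and from −0.1926 to 0.0264 for Nlrp3. The cause was not tested. Casp8 and Ripk1, the 2 genes with the largest SE, had 966 to 1572 and 1201 to 1794 estimated counts per library. The inferred weight of 1 fragment is about 4. Casp6 had 1124 to 2285 at an SE of 0.10, and Casp2 1297 to 1912 at an SE of 0.12. The part of count level in the SE was not tested.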
